A study of Homo sapiens with 4 samples.

Results

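Polyamines are small positively charged molecules that cells need for growth, and several steps of their balance are set during translation. The data are ribosome footprints of 8 genes of this pathway, taken by gene name: ODC1, AMD1, SRM and SMS, which make polyamines, OAZ1, OAZ2 and AZIN1, which set how long the ODC1 enzyme lives, and SAT1, which starts their breakdown. All 8 were in the tables, as 27 of 38455 transcripts and 8 of 14355 gene names. Footprints are RNA fragments that ribosomes protect from a nuclease, so a read marks where a ribosome stood. The cells were Hermes 4B, immortalised human melanocytes labelled wild type. All groups grew with 10% fetal bovine serum and the same additions: the phorbol ester TPA at 200 nM, cholera toxin at 200 pM, endothelin-1 at 10 nM, and stem cell factor at 10 ng/mL. They received a control siRNA or one directed at CDH3-AS1, which is transcribed antisense to the P-cadherin gene CDH3, each at 25 to 50 nM. Ribosomes were then halted with 100 µg/mL cycloheximide. Each siRNA had 2 libraries, replicate 1 in batch 1 and replicate 2 in batch 2.

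As background, the pathway is known for control during translation. Ornithine decarboxylase (ODC1) makes putrescine, and S-adenosylmethionine decarboxylase (AMD1) supplies the aminopropyl groups with which spermidine synthase (SRM) and spermine synthase (SMS) lengthen it. Antizymes (OAZ1, OAZ2) send ODC1 to the proteasome, and their mRNA yields full-length protein only when the ribosome shifts frame, which polyamines favour. The antizyme inhibitor AZIN1 resembles ODC1 and ties up antizyme. The mRNAs of AMD1 and AZIN1 carry upstream reading frames in the 5′ UTR at which polyamines stall ribosomes.

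Library totals ran from 2034854 to 6759850 reads, and the 8 genes together had 11794 coding, 2922 5′ UTR and 231 3′ UTR reads over the 4 libraries. All 8 melanocyte markers were present, at a summed 21519 to 40144 CPM (the counts-per-million scale), here coding reads over the coding total of the library. Control siRNA replicate 1 stood apart. It held 4007 CPM of 13 skeletal muscle markers (2 of them at 0) and 492 CPM of 5 fibroblast markers (2 at 0), against at most 10.6 and 4.25 CPM in the others, where 6 to 10 muscle and 1 to 4 fibroblast markers were at 0. Of 4 keratinocyte markers, 2 or 3 were at 0 in each library, with a sum of 8.03 to 35.3 CPM. CDH3 itself had a log2 fold change of -0.68 (SE 0.32, unadjusted p = 0.0679 by edgeR's quasi-likelihood test) and did not pass after adjustment over all genes. With the batch as a block its adjusted p was 0.168 by the same test. The level of CDH3-AS1 was not analysed here. The labels do not say whether the 2 libraries of an siRNA are separate cultures. The p-values therefore cover the spread between these libraries alone, and it may be technical. No RNA-seq was analysed, so more mRNA and more ribosomes per mRNA cannot be told apart, nor can fewer cells of a type and less RNA per cell.

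In coding reads AMD1 had the largest difference between the siRNAs among the 8 genes. Its coding level was 17.9 CPM in both controls, and 9.45 and 9.96 CPM in CDH3-AS1 siRNA replicates 1 and 2. The groups did not overlap, and the level came to 52.8% (batch 1) and 55.5% (batch 2) of that in the control. The log2 fold change was -0.82 (SE 0.42), with an unadjusted p of 0.0878 and an adjusted p of 1.00 (edgeR's quasi-likelihood test, Benjamini-Hochberg over the 10469 genes tested). With the batch as a block it was -0.81 (SE 0.44, unadjusted p = 0.0538, adjusted p = 0.522). An exact permutation test of 2 libraries against 2, the batches ignored, gave a two-sided p of 0.333. That is the smallest p possible for 2 against 2, and any gene without overlap reaches it, so it adds nothing to the lack of overlap. The counts behind these levels were small, with 33 and 101 coding reads in the controls and 60 and 26 with CDH3-AS1 siRNA.

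An AMD1 mRNA that begins at the downstream RefSeq start site opens with an upstream reading frame of 6 codons and a stop. It is shown because 188 of AMD1's footprints lay in the 5′ UTR against 220 in coding sequence. The RefSeq window around AMD1's downstream start site (GRCh38.p14) holds it on the plus strand of chromosome 6, at chr6:110874796-110874816, beginning 12 bases into the transcript. Capitals mark its start and stop codons.
AMD1 upstream reading frame: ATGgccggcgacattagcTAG
A complete ATG-to-stop frame, read on the transcribed strand, lies in the first 50 transcribed bases of 3580 of 35116 such windows (10.2%). RefSeq windows were read for 7 of the 8 genes, AZIN1 being left out. AMD1 was the only one of these 7 with such a frame. OAZ2's window had an ATG in those 50 bases with no stop in frame there, and 40.2% of all windows had an ATG there. Frames that start or end further into an mRNA were not sought. AMD1's window around its upstream start site (chr6:110814367-110814666) held 0 such frames. Reads were counted per region and not per base, so how many of the 188 reads sat on this frame was not measured. Nor was the start site of the mRNA that they came from.

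All 188 of those 5′ UTR reads were assigned to a transcript with a 147-base coding sequence (ENST00000451850.6), which had 10 coding reads. The other coding reads went to transcripts with longer coding sequences. Over all AMD1 transcripts, the 5′ UTR share, of 5′ UTR and coding reads together, was 57.7% in batch 1 with the control (95% interval 46.0 to 68.8) and 52.4% with CDH3-AS1 siRNA (43.3 to 61.3). In batch 2 it was 24.6% in the control (17.6 to 32.8) and 62.9% with CDH3-AS1 siRNA (50.5 to 74.1). The control of batch 2 thus stood below the other libraries, whose intervals overlap one another. The log2 ratio between the siRNAs was 0.99 (SE 1.18, adjusted p = 1.00 by edgeR). In CPM of all reads of the library, 5′ UTR reads stood at 22.1 and 5.51 in the controls and at 9.76 and 15.4 with CDH3-AS1 siRNA, which differ in opposite directions in the batches. With reads of all regions counted together the log2 fold change of AMD1 was -0.43, smaller in size than that of SAT1 (-0.68). For AMD1, limma on the coding RPKM of the transcript with most reads gave -0.25 on the log2(RPKM + 1) scale. That transcript is ENST00000451850.6, so the value rests on its 10 coding reads.

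ODC1, the first enzyme of the pathway, was among the least covered of the 8 genes and showed no common direction. It had 19.5 and 10.1 CPM in control replicates 1 and 2, and 18.6 and 13.0 CPM with CDH3-AS1 siRNA. The levels followed the batch, with both batch 1 libraries above both batch 2 libraries. With CDH3-AS1 siRNA the level came to 95.1% (batch 1) and 129% (batch 2) of that in the control, and the log2 fold change was 0.17 (SE 0.50, adjusted p = 1.00). Its sign turned without control replicate 2 (-0.22) and without CDH3-AS1 siRNA replicate 1 (-0.10). Among 3707 genes with at least 100 coding reads in each library, those whose log2 levels followed ODC1 most closely over the 4 libraries were ACTB, CLUH and CAVIN3. They lay at a root mean square difference of 0.02, 0.03 and 0.04 (log2) after centring, a description of 4 points. These differences leave out the counting error of ODC1, which had 34 to 118 coding reads per library. Which genes follow ODC1 most closely is therefore uncertain.

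SRM and SMS, the enzymes that make spermidine and spermine, were the pair with non-overlapping, higher levels after CDH3-AS1 siRNA. SRM had 206 and 173 CPM in the controls and 212 and 259 CPM with CDH3-AS1 siRNA. Its log2 fold change was 0.36 (SE 0.33, adjusted p = 1.00). The batches differed in size, at 103% (batch 1) and 150% (batch 2) of the control. SMS had 48.3 and 52.9 CPM in the controls and 58.3 and 65.9 CPM with CDH3-AS1 siRNA, which was 121% and 124% of the control. Its log2 fold change was 0.33 (SE 0.32, adjusted p = 1.00). SMS was thus the gene with the most even difference of those that were higher.

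ODC1 and SRM are textbook targets of the transcription factor MYC, which binds the motif CACGTG. The motif, a palindrome that reads alike on both strands, lies in 2548 of 35116 RefSeq promoter windows of 300 bases (7.26%). Among the windows of the 7 genes read, AZIN1 being left out, the motif was found in those of SRM and ODC1 alone. The ODC1 window at chr2:10448278-10448577 had 0 matches, and both ODC1 matches lay in its other window. The 7.26% is a share of windows and not of genes, and some genes have several windows. The sequences show the motif in capitals with 10 bases on either side (GRCh38.p14, minus strand).
SRM promoter, chr1:11060202-11060227: ggccgggcccCACGTGgcccctggag
ODC1 second start site, chr2:10448026-10448051: gggccccgggCACGTGtgcggcgcgc
ODC1 second start site, chr2:10447992-10448017: cctgcggagaCACGTGgtcgccgagc
A match is a description of the letters. MYC itself had 172 and 255 CPM in the controls and 211 and 249 CPM with CDH3-AS1 siRNA, so the groups overlapped. Of 9 genes of the MYC network, 8 were tested and 0 passed, with or without the block. The one with the largest difference and at least 50 reads in each library was MAX, the partner of MYC, at 129 and 153 CPM in the controls and 216 and 220 CPM with CDH3-AS1 siRNA (log2 fold change 0.67, SE 0.32, adjusted p = 1.00, and 0.212 with the block).

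**Figure D1:**
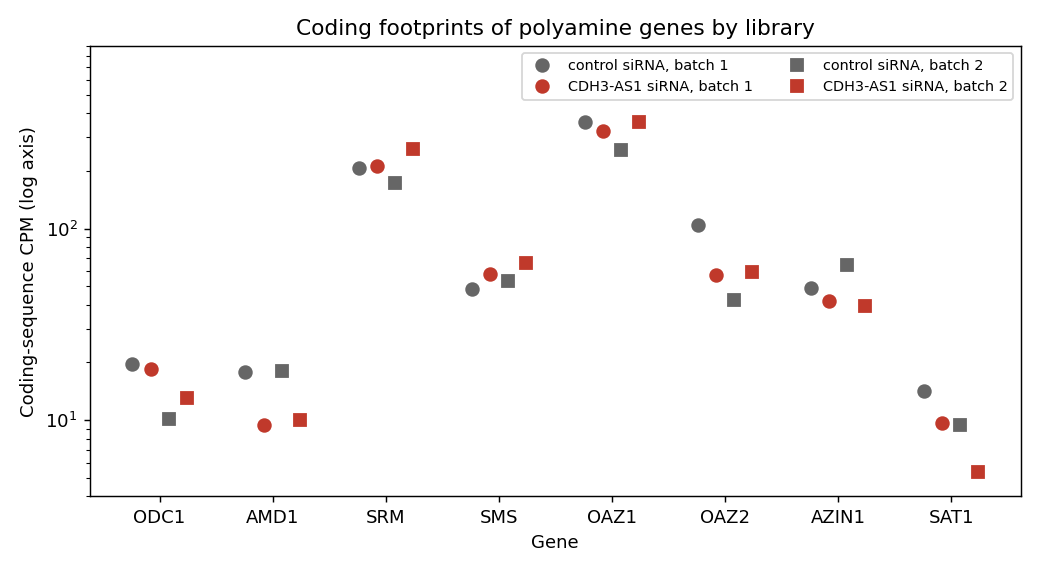
Coding-sequence CPM of the 8 genes (log axis), 1 point per library: grey for control siRNA, red for CDH3-AS1 siRNA, circles for batch 1 and squares for batch 2. AMD1 lies at 17.9 CPM in both controls and below 10 CPM in both CDH3-AS1 siRNA libraries, while the OAZ2 points are spread from 42.5 to 105 CPM.

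OAZ1 encodes the main antizyme and was the most densely covered member. It had 359 and 256 CPM in the controls and 323 and 361 CPM with CDH3-AS1 siRNA, so the groups overlapped (log2 fold change 0.20, SE 0.34, adjusted p = 1.00). Within batches it stood at 89.9% and 141% of the control. A transcript whose annotated coding sequence is only 159 bases long (ENST00000590943.6) took 35.9% of OAZ1's coding reads in batch 1 with the control (95% interval 32.2 to 39.6) and 42.9% with CDH3-AS1 siRNA (40.7 to 45.0). In batch 2 the values were 58.0% (55.4 to 60.6) and 54.4% (51.2 to 57.6). Both batch 2 libraries were above both batch 1 libraries, and the siRNAs differed in opposite directions in the batches. The full coding sequence of OAZ1 was listed at 687 bases. Frameshifting itself was not measured here, since the tables give no position or frame of a read.

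OAZ2, the second antizyme, had a highest coding level 2.47 times its lowest, a ratio that only SAT1 (2.63) exceeded among the 8 genes. Control replicate 1 stood at 105 CPM, above the 42.5, 57.2 and 59.0 CPM of control replicate 2 and CDH3-AS1 siRNA replicates 1 and 2. The log2 fold change of -0.28 (SE 0.47, adjusted p = 1.00) rested on that library and turned to 0.51 without it. The library is the one that held muscle transcripts, whose part in the OAZ2 level was not tested. Within batches OAZ2 was at 54.6% and 139% of the control.

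AZIN1, the antizyme inhibitor, was lower with CDH3-AS1 siRNA in both batches. It had 48.8 and 64.9 CPM in the controls and 42.1 and 39.5 CPM with CDH3-AS1 siRNA, at 86.1% and 60.9% of the control. The groups did not overlap, and the log2 fold change was -0.44 (SE 0.34, adjusted p = 1.00). It was -0.19 without control replicate 2 and -0.60 without control replicate 1.

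SAT1, the acetyltransferase that marks spermidine and spermine for breakdown, had 14.1 and 9.42 CPM in the controls and 9.61 and 5.36 CPM with CDH3-AS1 siRNA. It was lower in both batches, at 68.1% and 57.0% of the control, but the groups overlapped. The log2 fold change was -0.54 (SE 0.54, adjusted p = 1.00), from 14 to 61 coding reads per library. It was -0.22 without control replicate 1 and -0.24 without CDH3-AS1 siRNA replicate 2. All 35 of SAT1's 3′ UTR reads came from a transcript with a 216-base coding sequence and a 764-base 3′ UTR (ENST00000489394.5). These were 16 and 15 reads in batch 1 and 2 in each library of batch 2.

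The counts over all genes give these differences their background. By edgeR's quasi-likelihood test 0 of 8 members and 0 of 10469 genes (0%) passed at an adjusted p of 0.05, with 225 genes and 0 members at an unadjusted p under 0.05. DESeq2 called 2 genes (0.0191%) and 0 members. With the batch as a block in the edgeR test 170 genes passed (1.62%) and again 0 members. The members' adjusted p then ran from 0.522 (AMD1) to 0.961 (ODC1). AMD1 and AZIN1 were lower without overlap of the groups, 2 of 8 where 16.1% of all tested genes were, and SRM and SMS were higher without overlap, 2 of 8 where 11.2% were. Over the batches 5 of 8 kept 1 direction, against 54.6% of all genes. The median log2 fold change was -0.05 over the 8 genes and -0.03 over all genes tested.

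**Figure D2:**
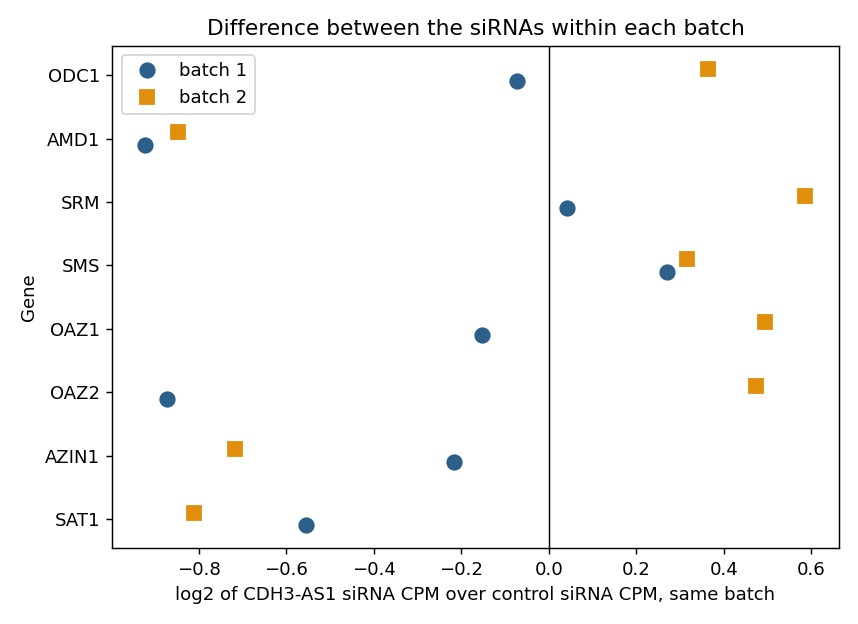
The log2 ratio of coding CPM, CDH3-AS1 siRNA over control siRNA, within batch 1 (blue circles) and batch 2 (orange squares), 1 value per gene and batch. AMD1 lies at -0.92 and -0.85, SMS at 0.27 and 0.32, and ODC1, OAZ1 and OAZ2 lie on opposite sides of 0 in the batches.

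Levels of different genes were compared as RPKM, coding reads per kilobase of the gene's longest listed coding sequence scaled to the library's total, over 4 libraries. OAZ1 stood highest at 436 ± 59.6 RPKM (SD, n = 4), followed by SRM at 216 ± 34.3 and OAZ2 at 106 ± 41.7. SMS followed at 47.3 ± 6.37 and AZIN1 at 33.5 ± 8.17, and then came SAT1 at 17.2 ± 6.24, ODC1 at 10.2 ± 2.95 and AMD1 at 9.19 ± 3.14. The ranges of neighbours in this order overlapped for SMS and AZIN1, for SAT1 and ODC1, and for ODC1 and AMD1. The antizymes thus carried far denser footprints than ODC1, whose protein they bind. The ranges of OAZ1 (350.4 to 480.1) and OAZ2 (69.9 to 166) lay above that of ODC1 (6.86 to 12.8). The order rests on the lengths used: 687 bases for OAZ1, 1386 for ODC1, and 1389 for AMD1, where a transcript of low coverage is the longest.

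The 5′ UTR was occupied in some of the genes and nearly empty in others. Over all transcripts of a gene, the mean share of 5′ UTR in 5′ UTR and coding reads was 61.8% in AZIN1, 49.4% in AMD1 and 45.9% in OAZ2. Among 6121 genes with at least 50 such reads in each library the median was 2.94%, and 99.5%, 98.9% and 98.6% of them lay below AZIN1, AMD1 and OAZ2. SMS (6.35%) lay above 67.9% of them, OAZ1 (3.23%) above 52.1% and SRM (0.186%) above 18.1%. ODC1 and SAT1 had fewer reads and were not ranked. SAT1 had 137 5′ UTR reads against 154 coding reads, with shares of 49.0% and 43.6% in control replicates 1 and 2 and 51.6% and 30.0% with CDH3-AS1 siRNA. ODC1 had 25 5′ UTR reads, with shares of 5.26% to 15.0%. SRM's transcript with most reads had 0 5′ UTR reads in every library, which allows a share of up to 1.26% in the shallowest and 0.320% in the deepest (upper ends of the 95% Clopper-Pearson intervals).

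AZIN1's reads were divided between transcripts in a way that bears on every share taken from a single transcript. The transcript with most reads had 1110 reads in its 766-base 5′ UTR and 0 in its coding sequence, while a second with a coding sequence of the same 1347 bases had 825 coding reads. A read was thus not listed under every transcript that could hold it. Over all transcripts the AZIN1 5′ UTR share was 75.1% (70.4 to 79.5) and 42.8% (38.9 to 46.7) in control replicates 1 and 2, and 65.7% (62.3 to 69.1) and 63.6% (57.7 to 69.2) with CDH3-AS1 siRNA. As for AMD1, the control of batch 2 was the lowest of the 4 libraries. The log2 ratio between the siRNAs was 0.29 (SE 1.12, adjusted p = 1.00 by edgeR).

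**Figure D3:**
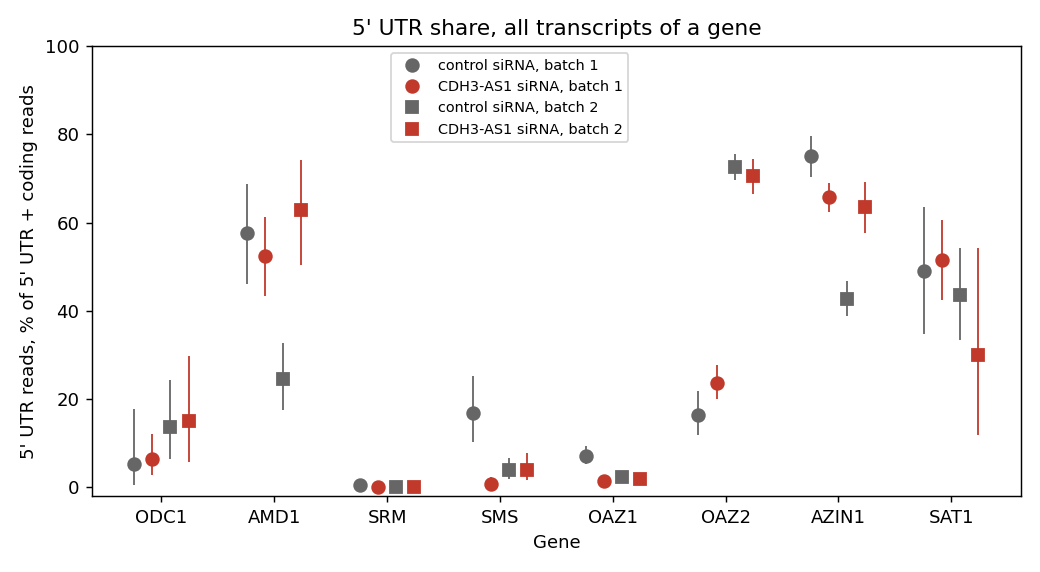
Share of 5′ UTR reads in 5′ UTR and coding reads, summed over the transcripts of each gene, 1 point per library with 95% Clopper-Pearson intervals, which cover counting error only. OAZ2 separates by batch, at 16.5% and 23.7% in batch 1 and 72.7% and 70.6% in batch 2, and control replicate 2 is the lowest library for AMD1 and AZIN1.

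For the transcript with most reads, 6 of the 8 genes had enough reads in both regions to test whether the ratio of 5′ UTR to coding reads differed between the siRNAs. By edgeR's quasi-likelihood test of that interaction 0 of 6 members and 0 of 3686 genes (0%) passed, with 0 and 22 at an unadjusted p under 0.05. With the block 1 gene passed (0.0271%), no member. The largest ratios were those of SMS (log2 ratio -1.85, SE 1.34) and OAZ1 (-1.32, SE 1.24), each with an adjusted p of 1.00. Both rested on control replicate 1, without which they were -0.82 and -0.23. SMS had a 5′ UTR share of 16.8% there (95% interval 10.3 to 25.3) and of 3.87% (2.02 to 6.66), 0.804% (0.166 to 2.33) and 3.93% (1.60 to 7.93) in control replicate 2 and CDH3-AS1 siRNA replicates 1 and 2. The OAZ1 transcript had 45 of 282 reads there (11.9 to 20.8%) and 3.79%, 3.09% and 3.39% in the same other libraries. A two-sided Fisher's exact test on the batch 1 reads gave an adjusted p over all genes of 1.88e-08 for SMS and 6.20e-11 for OAZ1, and in batch 2 of 1.00 and 0.966. It compares those libraries and not the siRNAs, and it called 22.6% of all genes in batch 1 and 13.9% in batch 2. Control replicate 1 held the 4007 CPM of muscle markers, whose part in these shares was not tested.

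OAZ2 differed between the batches in the place of its footprints. In its main transcript (ENST00000326005.10, with a 233-base 5′ UTR and a 570-base coding sequence) the 5′ UTR held 12.7% of reads in batch 1 with the control (95% interval 8.59 to 17.8) and 10.6% with CDH3-AS1 siRNA (7.77 to 14.0). In batch 2 it held 68.4% in the control (64.9 to 71.7) and 67.8% with CDH3-AS1 siRNA (63.4 to 72.0). Libraries of a batch lay close together whichever siRNA they had, and the batches did not overlap. Density in the 5′ UTR was 59.1 and 27.3 RPKM in batch 1 and 368 and 486 RPKM in batch 2, control first. Coding density was 166 and 94.2 RPKM in batch 1 and 69.7 and 94.5 RPKM in batch 2. The difference thus lay mostly in the 5′ UTR reads, which over all OAZ2 transcripts were 5.68 times as large a part of the library in batch 2 as in batch 1 with the control, and 7.74 times with CDH3-AS1 siRNA.

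**Figure D4:**
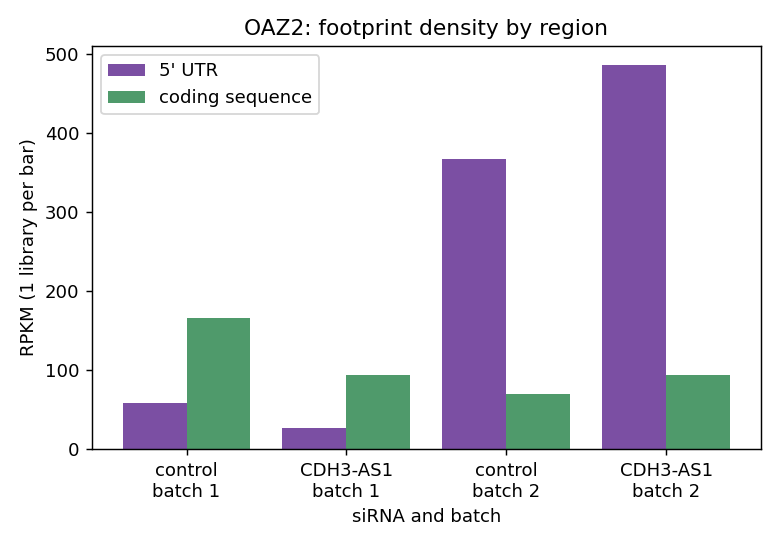
Footprint density of the main OAZ2 transcript, in RPKM as deposited, in the 5′ UTR (purple) and the coding sequence (green), 1 library per bar. In both batch 1 libraries the coding bar is the taller (166 and 94.2 RPKM), and in both batch 2 libraries the 5′ UTR bar is (368 and 486 RPKM).

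The ratio of OAZ2 5′ UTR to coding reads was higher in batch 2 by 3.95 on the log2 scale (SE 1.08, edgeR's quasi-likelihood test over 3686 genes, adjusted p = 0.0440). OAZ2 was 1 of 20 genes called between the batches (0.543%) and the only one of the 6 members tested, and 13 of the 3686 genes, OAZ2 included, had a ratio at least as large. This comparison was added after the OAZ2 reads had been seen. Over all OAZ2 transcripts the log2 ratio was 3.31 and the edgeR call was lost (adjusted p = 0.147), where 0.153% of 6517 genes were called. Set against the overall 5′ UTR share of each library it was 3.74 (adjusted p = 2.73e-07, 4.29% of genes called), and among genes with at least 50 5′ UTR reads 3.95 (adjusted p = 0.00899, 2.84% called). A transcript with a 383-base 5′ UTR (ENST00000559753.1) there adds 10, 70, 122 and 46 5′ UTR reads in control replicate 1, CDH3-AS1 siRNA replicate 1, control replicate 2 and CDH3-AS1 siRNA replicate 2. For the other members tested, the batch 2 to batch 1 log2 ratios were 1.41 (ODC1), -1.07 (OAZ1), -0.93 (SAT1), -0.53 (AMD1) and -0.44 (SMS), with adjusted p between 0.734 and 0.966 by the same edgeR test.

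In coding reads the batches differed in 1657 of 10469 genes (15.8%) and in 0 of 8 members, with the siRNA as a covariate in edgeR's quasi-likelihood test. Of the members, 1, OAZ2, had an unadjusted p under 0.05. DESeq2 called 694 genes and none of the 7 members it gave an adjusted p (all but SAT1). The largest log2 differences, batch 2 minus batch 1, were -0.68 (SE 0.42, adjusted p = 0.274) for ODC1, -0.64 (SE 0.51, adjusted p = 0.407) for SAT1 and -0.60 (SE 0.29, adjusted p = 0.156) for OAZ2. AMD1 (0.06), SRM (0.05), OAZ1 (-0.13), SMS (0.18) and AZIN1 (0.18) were nearer 0.

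Around these genes, 45 others of polyamine supply, transport, breakdown and use, the MYC network included, were listed, of which 36 were tested and 0 passed between the siRNAs in either direction, with or without the block. All 3 tested genes of spermidine and spermine breakdown (SMOX, PAOX, SAT2), and the 1 tested of the other antizyme and antizyme inhibitor genes, had under 50 reads in some library. The largest difference of each remaining list is given among its genes with at least 50 coding reads in each library, so less covered genes may differ more. Of 6 such transport genes (8 tested) it was that of SLC7A1, a carrier of arginine and ornithine, with 79.2 and 82.4 CPM in the controls and 137 and 100.4 CPM with CDH3-AS1 siRNA (log2 fold change 0.59, SE 0.32, adjusted p = 1.00). Of 3 such genes of ornithine and arginine supply (5 tested) it was that of ASL, argininosuccinate lyase (-0.57, SE 0.35). Of 7 such genes of the methionine cycle and salvage (9 tested), which recycles the by-product of SRM and SMS, it was that of ENOPH1 (-0.78, SE 0.36). ENOPH1 had 69.5 and 51.2 CPM in the controls and 37.8 and 29.5 CPM with CDH3-AS1 siRNA, lower in both batches, with an adjusted p of 1.00 (0.238 with the block). Of 2 such genes of hypusine formation (3 tested), the use of spermidine to modify eIF5A, it was that of DOHH (-0.11, SE 0.59), while the less covered EIF5A2 had -0.66 (SE 0.75). EIF5A itself was not among the genes tested. The lists' median log2 fold changes lay between -0.11 and 0.52, beside -0.03 for all genes.

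Between batches 5 of these 36 genes were called, against 15.8% of all genes. ADI1 of methionine salvage (log2 difference 1.80, adjusted p = 6.95e-06), EIF5A2 (1.51), an isoform of eIF5A, and the polyamine transporter ATP13A3 (0.96) were higher in batch 2. DOHH (-1.12) and SLC18B1 (-0.93), a vesicular polyamine carrier, were lower, all by edgeR's quasi-likelihood test.

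The genes lie on 7 chromosomes in RefSeq's annotation of GRCh38.p14, the assembly that hg38 names. SRM is at chr1:11054589-11060018, ODC1 at chr2:10439968-10448327, AMD1 at chr6:110814617-110895713 and AZIN1 at chr8:102826302-102864200. OAZ2 is at chr15:64687574-64703281, OAZ1 at chr19:2269486-2273488, SMS at chrX:21940709-21994837 and SAT1 at chrX:23783173-23786210. Several of these genes have processed pseudogene copies, and reads that also match a copy or an overlapping antisense gene can have been assigned either way, so levels are uncertain to that extent.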

How the data were processed

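Ribosome footprints of 4 libraries, 2 per siRNA, were analysed. The authors deposited, per the file headers, counts of reads in the 5′ UTR, coding sequence and 3′ UTR of each transcript, with RPKM per region, which the values show to be scaled to all reads of a library, whatever the region. The build hg38 and DESeq2 are named in the submitters' processing notes. The aligner, counter, filters and strand setting were not given in the sources used here.

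Coding counts were summed by gene name, filtered with filterByExpr (minimum count 10, minimum total 15) and tested with edgeR 4.0.16 (TMM, quasi-likelihood, prior count 2, Benjamini-Hochberg over all genes, threshold 0.05) in R 4.3.3. The 5′ UTR test was an edgeR interaction of region and siRNA with library as a term, on the transcript with most reads, for genes with at least 10 reads in each region. DESeq2 1.42.0 and limma 3.58.1 were alternatives. The tests were run on simulated data that had no difference between batches. For the 5′ UTR test the simulated reads held counting error only. These libraries differ from both settings, so that run does not show how the tests behave on them. A depth of 3 coding reads was 0.473 to 1.63 CPM. Intervals are 95% Clopper-Pearson and cover counting error only. Replicates differed beyond sampling noise (chi-square per degree of freedom 36.4 and 44.0). Same-numbered libraries share a batch by label, and their deviations correlated over genes (r = 0.61), so the numbers pair them. The main test between the siRNAs did not use this pairing, which enters only with the block. The block lowered the biological coefficient of variation from 35.9% to 20.2%, and the residual degrees of freedom from 2 to 1.

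Members and lists were chosen with earlier results of these data known. Named were the 8 members, CDH3, MYC, list genes past the threshold and the 3 genes nearest ODC1. The largest difference per list among genes with at least 50 reads in each library was named too. The batch comparison of the 5′ UTR ratio and 1 set of block alternatives were added after seeing the data.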

Additional observations from a re-analysis of the deposited data

How the results depend on the processing

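Between the siRNAs 0 of 8 members were called in each alternative that tested them. The count over all genes moved from 0 to 170 with the replicate block, 2 with DESeq2, 57 with DESeq2 and the block, and 52 with no filter on low counts. With the block it was 191 on reads of all regions, 127 with at least 50 reads in every library and 227 with no filter, alternatives added after seeing the data. Leaving out 1 library gave 0 to 73 calls, 73 without control siRNA replicate 2. The replicate block changed no member's call. Log2 fold changes with 1 library left out ran from -0.87 to -0.75 for AMD1, -0.98 to -0.22 for SAT1, -0.60 to -0.19 for AZIN1, 0.22 to 0.43 for SMS and 0.19 to 0.51 for SRM. They crossed 0 for OAZ2 (-0.78 to 0.51), ODC1 (-0.22 to 0.70) and OAZ1 (-0.0037 to 0.48). AMD1 could not be fitted on coding counts of the transcript with most reads, nor with at least 50 reads in every library, since it did not pass those filters.

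For the 5′ UTR ratio between the siRNAs, the count moved from 0 to 1 with the replicate block and lay at 0 to 1 with 1 library left out. The log2 ratio of ODC1 turned from -0.04 to 0.10 with the block, to 5.3e-04 over all transcripts, to 0.12 when set against the overall share of the library, and to 0.14 with the block over all transcripts. That of OAZ2 turned from -0.16 to 0.22 over all transcripts and to 0.25 with the block as well. With 1 library left out ODC1 ran from -0.70 to 0.77, OAZ2 from -2.23 to 1.83 and SAT1 from -1.14 to 0.27, so no direction can be read for them.

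Between the batches, DESeq2 called 694 genes in coding reads where edgeR called 1657. For the 5′ UTR ratio, 20 genes became 10 over all transcripts, 158 against the overall share of the library and 50 with at least 50 5′ UTR reads. Members called fell from 1 to 0 over all transcripts, where OAZ2 stood at 3.31. Its adjusted p ran from 2.73e-07 to 0.147 over these alternatives. With a library left out, the batch models have no residual degrees of freedom and could not be fitted. The causes were not tested. Depth limits AMD1, ODC1 and SAT1 most, with 14 to 118 coding reads per library.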
